A study of Mus musculus with 6 samples.

Results

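The genes of the liver X receptors (LXRs) and of lipid handling proteins listed as LXR targets were measured in mouse bone marrow–derived macrophages (BMDMs) exposed to heme. The group holds 10 named genes, chosen by symbol: the receptor genes Nr1h2 and Nr1h3, the efflux transporter genes Abca1 and Abcg1, Mylip, Srebf1, Scd1, Scd2, Lpcat3 and Smpdl3a. All 10 were among the 25700 Ensembl identifiers of the count tables, and all 10 were among the 12433 genes that passed the filter on low counts. BMDMs were grown from bone marrow of C57BL/6J mice aged 8 to 10 weeks in medium with M-CSF at 100 ng/ml, a culture that yields macrophages from marrow precursors. Heme-albumin at 300 μM (heme, n = 3) or albumin alone as vehicle (control, n = 3) was added on day 3. RNA was taken on day 7 for stranded bulk RNA-Seq, and each library stands for macrophages of 1 mouse. The labels give these groups no other treatment or genotype.

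LXRs are nuclear receptors that bind oxysterols and the cholesterol precursor desmosterol, and they act on DNA as partners of the retinoid X receptors. In macrophages, activated LXRs raise transcription of transporters that pass cholesterol to lipoproteins, of a ubiquitin ligase that limits lipoprotein uptake, and of SREBP-1c, which in turn drives fatty acid synthesis and desaturation. LXR targets are best known in macrophages that have engulfed lipoproteins or dying cells.

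Heme-treated BMDMs carried less mRNA of most LXR target genes than control BMDMs, while the mRNA of the receptors themselves did not pass the test. Of the 10 genes, 7 fell (Scd1, Abca1, Scd2, Abcg1, Mylip, Srebf1 and Lpcat3), 1 rose (Smpdl3a) and 2 were not called (Nr1h2 and Nr1h3) in edgeR's quasi-likelihood test, at a Benjamini-Hochberg adjusted p under 0.05 over all tested genes. Calls were common in these libraries: 62.5% of all tested genes were called, 30.8% lower and 31.7% higher. The heme and control libraries did not overlap for 8 of the 10 genes, against 68.8% of all tested genes. The median log2 fold change (heme over control) was -0.82 over the 10 genes and 0.00 over all tested genes. Library totals ranged from 27201038 to 32994595 counts, and the least abundant of the 10 genes, Nr1h3, had 144 to 180 counts in the heme libraries and 166 to 233 counts in the control libraries. Levels are given in CPM, that is, counts scaled to a common library size, after TMM normalization.

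**Figure D1:**
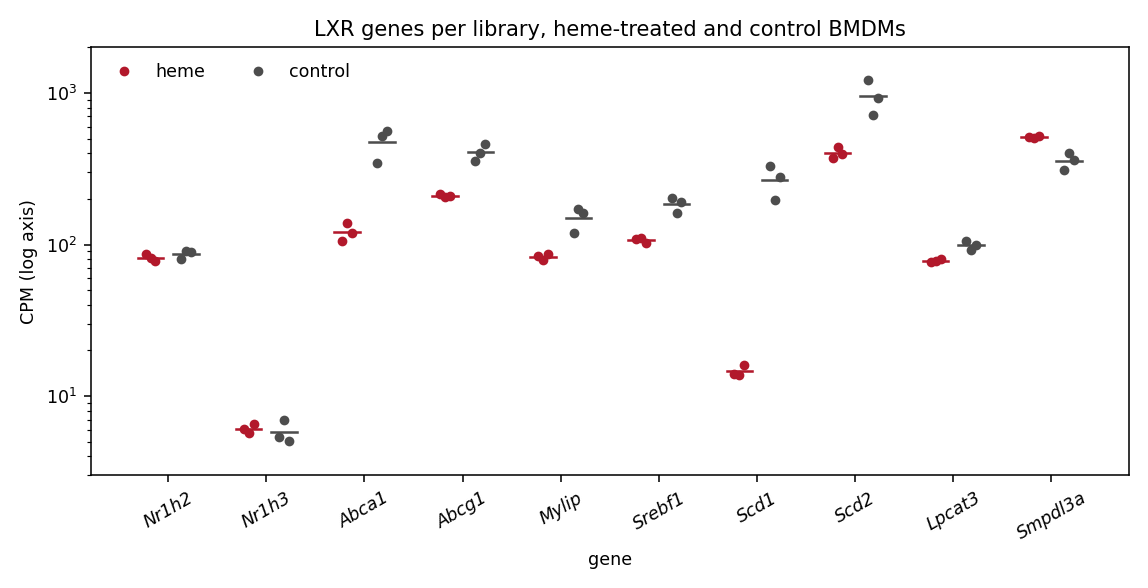
CPM of the 10 LXR genes in each library on a log axis, with 3 heme-treated libraries on the left and 3 control libraries on the right for every gene; bars mark group means. Scd1 lies between 13.7 and 16.0 CPM in the heme libraries and between 196 and 329 CPM in the control libraries, while the libraries of Nr1h2 and Nr1h3 overlap.

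Nr1h2 encodes LXRβ, the widely expressed receptor. Nr1h2 had 87.2, 81.0 and 77.4 CPM in the heme libraries, against 80.5, 90.8 and 89.4 CPM in the control libraries. The groups overlapped, and the log2 fold change was -0.08 (SE 0.07, adjusted p = 0.337 in edgeR's test). Nr1h3 encodes LXRα, the form that is prominent in liver and in some tissue macrophages. Nr1h3 had 6.06, 5.69 and 6.57 CPM in the heme libraries, against 5.36, 6.95 and 5.08 CPM in the control libraries. The highest and the lowest Nr1h3 values were both in control libraries, and its log2 fold change was 0.08 (SE 0.15, adjusted p = 0.672 in edgeR's test). The sign for Nr1h3 turned to -0.01 without control replicate 3. When libraries were scaled by their totals alone, the median of all tested genes moved to -0.22. Nr1h3 was then at -0.15, and Nr1h2 fell by 0.31 on the log2 scale (adjusted p = 0.00318 in edgeR's test). Nr1h2 lies on chromosome 7 of GRCm38 from 44549616 to 44553951, and Nr1h3 on chromosome 2 from 91184061 to 91202834, both on the minus strand.

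Per kilobase of annotated exon, Nr1h2 was at 24.4 CPM in heme-treated BMDMs and 25.9 CPM in control BMDMs, and Nr1h3 at 2.43 CPM in heme-treated and 2.30 CPM in control BMDMs. The Nr1h3 count per Nr1h2 count within a library was 0.0695, 0.0702 and 0.0848 in the heme libraries, against 0.0666, 0.0766 and 0.0568 in the control libraries. LXRβ mRNA thus exceeded LXRα mRNA in all 6 libraries, and the log2 ratio differed by 0.17 between the groups (SE 0.16; exact two-sided permutation test, p = 0.4).

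Both cholesterol efflux transporter genes fell, Abca1 by the larger amount. ABCA1 moves cholesterol and phospholipid onto lipid-poor apolipoprotein A-I. Abca1 had 106, 138 and 119 CPM in the heme libraries, against 346, 517 and 559 CPM in the control libraries. The groups did not overlap, and Abca1 was 3.92-fold lower in heme-treated BMDMs (log2 fold change -1.97, SE 0.17, adjusted p = 8.38e-06 in edgeR's test). ABCG1 passes cholesterol to mature high-density lipoprotein particles. Abcg1 had 215, 205 and 209.5 CPM in the heme libraries, against 358, 399.9 and 458 CPM in the control libraries. The heme values lay close together and below every control value, for a log2 fold change of -0.95 (SE 0.09, adjusted p = 1.37e-05 in edgeR's test). Abca1 spans chromosome 4 of GRCm38 from 53030787 to 53159895 on the minus strand, and Abcg1 chromosome 17 from 31057675 to 31117988 on the plus strand.

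The balance between the transporters was read within each library, where it does not depend on scaling. There were 0.491, 0.674 and 0.568 Abca1 counts per Abcg1 count in the heme libraries, against 0.966, 1.29 and 1.22 in the control libraries. The ratios did not overlap, and the log2 ratio was lower in heme-treated BMDMs by a mean difference of -1.01 (SE 0.19; two-sided exact permutation test, p = 0.1, below which 3 libraries against 3 cannot go; 0.15 after adjustment over the 3 ratios tested).

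**Figure D2:**
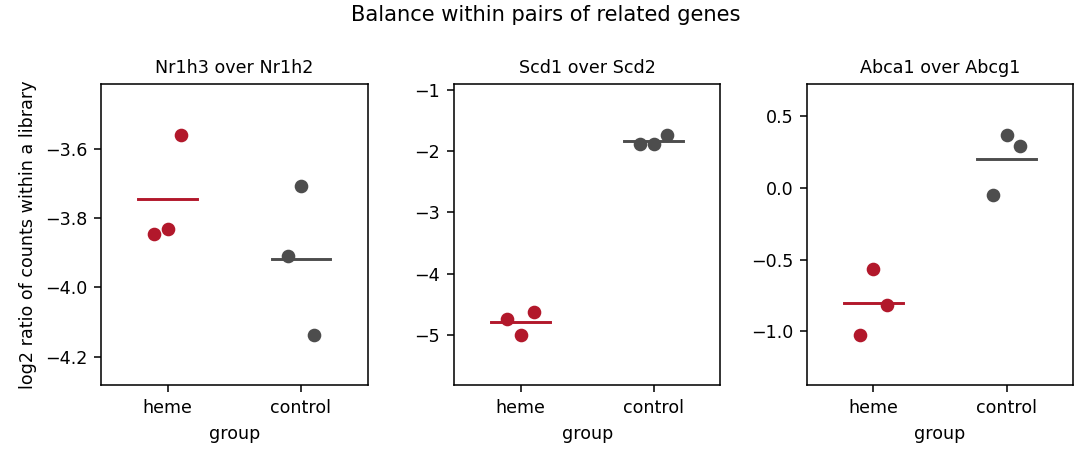
Log2 ratio of counts within each library for 3 pairs of related genes, with heme-treated libraries on the left and control libraries on the right of each panel; bars mark means and the vertical scales differ between panels. Scd1 over Scd2 averages -4.79 in heme and -1.83 in control libraries, Abca1 over Abcg1 averages -0.80 in heme and 0.20 in control libraries, and the Nr1h3 over Nr1h2 values of both groups overlap.

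Mylip encodes IDOL, a ubiquitin ligase that marks lipoprotein receptors for degradation. Mylip had 83.5, 78.8 and 86.3 CPM in the heme libraries, against 119, 171 and 162 CPM in the control libraries. All heme values were below all control values, and Mylip fell with a log2 fold change of -0.86 (SE 0.12, adjusted p = 0.000206 in edgeR's test). The gene lies on chromosome 13 of GRCm38 from 45389742 to 45412022, plus strand. Among 8 listed IDOL substrates and other genes of cholesterol uptake, all tested, 3 rose and 1 fell, with a median log2 fold change of 0.09. Over all tested genes, 31.7% rose and 30.8% fell. Of the receptors that IDOL degrades, Lrp8 (ApoER2) rose with a log2 fold change of 1.07 (SE 0.19, adjusted p = 0.000810 in edgeR's test), at 109.9 ± 8.59 CPM in heme-treated and 52.4 ± 16.6 CPM in control BMDMs (SD, n = 3). Vldlr, a further such receptor gene named after its values were seen, was not called (-0.03, SE 0.19). Srebf2, the gene of the regulator of cholesterol synthesis SREBP-2, was the 1 gene of this list that fell (log2 fold change -0.76); 2 fell with library totals as the only scaling or without control replicate 2.

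Srebf1 encodes SREBP-1, including the LXR-induced form SREBP-1c that activates genes of fatty acid synthesis. Srebf1 had 109, 110.0 and 103 CPM in the heme libraries, against 201, 162 and 192 CPM in the control libraries. The groups were well apart, and Srebf1 fell with a log2 fold change of -0.79 (SE 0.09, adjusted p = 3.51e-05 in edgeR's test). The counts are per gene (chromosome 11 of GRCm38, 60199089 to 60222581, minus strand), so SREBP-1a and SREBP-1c transcripts were not told apart. Exons of Srebf1 share 109 bases with exons of Rai1 on the other strand, and Rai1 itself had a log2 fold change of -0.41 (SE 0.10).

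The letters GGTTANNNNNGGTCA, the core of the LXR response element known from promoters such as those of Abca1 and Srebf1, were searched on both strands of RefSeq promoter windows of GRCm38.p6, 250 bases before to 50 after each start. Windows were found for 6 of the 10 genes (Nr1h2, Nr1h3, Abca1, Srebf1, Mylip and Lpcat3), 9 windows in all. The letters occurred in 16 of 32851 windows (0.0487%), among them that of Abca1 and that of the innermost of 3 Srebf1 starts. Both are shown because they hold the match; capitals mark it, on the strand opposite to the motif as spelled.
Abca1: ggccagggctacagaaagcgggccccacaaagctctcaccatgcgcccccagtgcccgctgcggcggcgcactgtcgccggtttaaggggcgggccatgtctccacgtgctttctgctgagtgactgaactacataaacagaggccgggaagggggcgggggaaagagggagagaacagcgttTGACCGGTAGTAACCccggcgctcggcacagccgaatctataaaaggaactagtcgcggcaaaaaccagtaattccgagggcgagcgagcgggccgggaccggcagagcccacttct
Srebf1: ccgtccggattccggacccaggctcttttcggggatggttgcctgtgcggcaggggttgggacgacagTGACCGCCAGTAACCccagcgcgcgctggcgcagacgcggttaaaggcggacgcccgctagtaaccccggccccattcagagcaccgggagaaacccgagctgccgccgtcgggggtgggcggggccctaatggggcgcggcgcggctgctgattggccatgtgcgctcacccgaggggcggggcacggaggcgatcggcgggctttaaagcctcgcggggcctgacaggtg

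The Abca1 window is chr4:53159846-53160145, minus strand, and the match lies 67 to 53 bases before the start. The Srebf1 window is chr11:60210422-60210721, minus strand, inside the annotated gene, and the match lies 182 to 168 bases before that start. Read on the strand of the motif, the match is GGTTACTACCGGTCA in Abca1 and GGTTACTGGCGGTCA in Srebf1. The 16 windows belong to 13 genes, of which 7 were tested in edgeR. Of these, 5 fell (Abca1, Srebf1, Fasn, Acsl3 and Prrg4), Haao rose and Tmco4 was not called. Haao was at 0.574 CPM in heme-treated and 0.236 CPM in control BMDMs. Over all tested genes, 30.8% fell and 31.7% rose. Fasn, Acsl3, Prrg4, Haao and Tmco4 are named because they hold the letters. The letters were picked with the known elements of LXR targets in view. The matches are therefore a description and not independent of the gene list. The SREBP element letters TCACNCCAC, also on both strands, were in 1.24% of all windows and in none of the 9. That says only that these letters are not in the 9 windows. Of 137 tested genes whose windows hold them, 47 fell, 46 rose and 44 were not called.

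The largest fall among the 10 genes was that of Scd1, and Scd2, of the same family, fell less. Both encode stearoyl-CoA desaturases, which put the double bond into oleic and palmitoleic acid and are targets of LXR and of SREBP-1c. Scd1 had 14.0, 13.7 and 16.0 CPM in the heme libraries, against 329, 196 and 279 CPM in the control libraries. No heme value came near the lowest control value, and Scd1 was 18.4-fold lower in heme-treated BMDMs (log2 fold change -4.20, SE 0.18, adjusted p = 1.03e-07 in edgeR's test). Of all tested genes, 1.78% had a larger absolute change. Scd2 had 375, 441 and 396 CPM in the heme libraries, against 1212, 720.2 and 923 CPM in the control libraries. Its groups did not overlap either, and it was 2.36-fold lower (log2 fold change -1.24, SE 0.16, adjusted p = 0.000128 in edgeR's test). On chromosome 19 of GRCm38, Scd1 lies from 44394455 to 44407879 on the minus strand and Scd2 from 44293674 to 44306864 on the plus strand. Scd4 lies between them, from 44333092 to 44346743.

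Within a library there were 0.0374, 0.0311 and 0.0403 Scd1 counts per Scd2 count in the heme libraries, against 0.271, 0.272 and 0.302 in the control libraries. Scd2 was the more abundant desaturase mRNA in both groups, more so in heme-treated BMDMs. The log2 ratio differed by -2.96 (SE 0.12; two-sided exact permutation test, p = 0.1, again the lowest value possible; 0.15 after adjustment over 3 ratios). The Scd genes are close copies: of the distinct 50-base stretches in Scd1 transcripts, 4.56% also occurred in transcripts of other genes, Scd3 foremost, and 3.97% of those of Scd2 did, Scd1 foremost. How reads from these stretches were counted is not given in the sources used here.

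Lpcat3 encodes the acyltransferase that places polyunsaturated fatty acids in membrane phospholipids. Lpcat3 had 76.6, 77.5 and 79.9 CPM in the heme libraries, against 106, 92.4 and 99.4 CPM in the control libraries. The fall was the smallest of the 7, without overlap (log2 fold change -0.35, SE 0.07, adjusted p = 0.00149 in edgeR's test), and 53.9% of all tested genes changed by more in absolute terms. Lpcat3 (chromosome 6 of GRCm38, 124663027 to 124704418, plus strand) shares 334 exon bases with Emg1 on the other strand. Emg1 had a log2 fold change of -0.24 (SE 0.08), and the strand setting of the counting is not given in the sources used here.

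Smpdl3a, the gene of a secreted phosphodiesterase related to acid sphingomyelinase, rose. It is known as an LXR target from human macrophages, and whether LXRs control it in mouse BMDMs was not tested here. Smpdl3a had 509, 505 and 519 CPM in the heme libraries, against 312, 401 and 362 CPM in the control libraries. It was 1.43-fold higher in heme-treated BMDMs without overlap (log2 fold change 0.51, SE 0.09, adjusted p = 0.000792 in edgeR's test). With library totals as the only scaling the rise was 0.29. Smpdl3a spans chromosome 10 of GRCm38 from 57794335 to 57811830 on the plus strand.

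**Figure D3:**
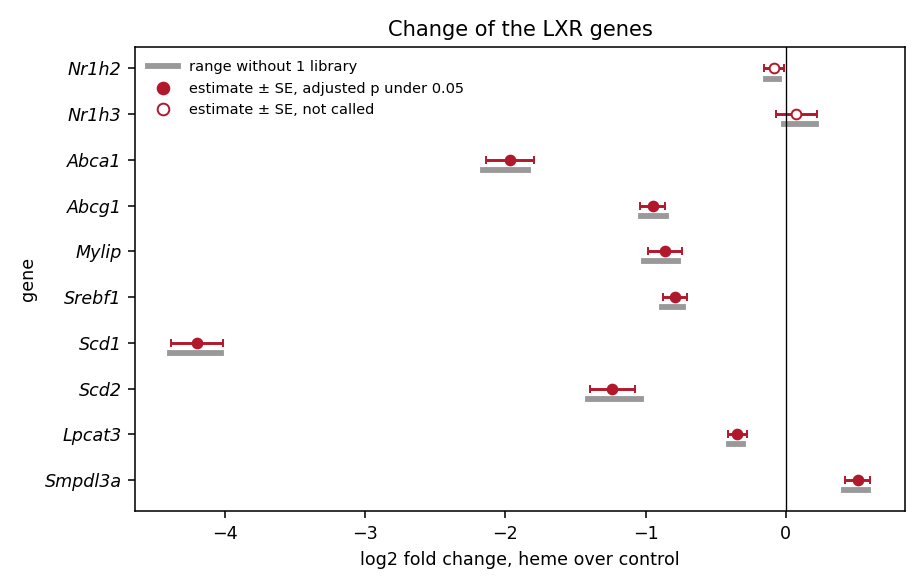
Log2 fold change (heme over control) of the 10 genes with its standard error from edgeR's test, filled where the adjusted p is under 0.05 and open where it is not; grey bars span the estimates when 1 of the 6 libraries is left out. The 7 genes that fell stay left of 0 over the whole grey bar, Smpdl3a stays right of it, and the bar of Nr1h3 reaches from -0.01 to 0.22.

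The order of levels per kilobase of exon changed with treatment. In heme-treated BMDMs, Smpdl3a was highest (248 CPM per kb), then Scd2 (73.9), Abcg1 (28.8), Mylip (25.6), Nr1h2 (24.4), Lpcat3 (23.9), Srebf1 (19.0), Abca1 (11.7), Scd1 (2.98) and Nr1h3 (2.43). Only the ranges of Mylip with Nr1h2 and of Nr1h2 with Lpcat3 overlapped among neighbours in that order. In control BMDMs, Scd2 and Smpdl3a shared the top (174 CPM per kb each), followed by Abcg1 (55.5), Scd1 (54.7), Mylip (46.6), Abca1 (45.7), Srebf1 (32.9), Lpcat3 (30.3), Nr1h2 (25.9) and Nr1h3 (2.30). In control BMDMs neighbours overlapped throughout, except Smpdl3a with Abcg1, Lpcat3 with Nr1h2, and Nr1h2 with Nr1h3. Scd1 was below Nr1h2 in all 3 heme libraries and above it in all 3 control libraries.

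The 10 genes varied less among heme libraries than among control libraries, as did 64.1% of all tested genes. The coefficient of variation was 1.41% (Smpdl3a) to 13.7% (Abca1) over the heme libraries and 6.43% (Nr1h2) to 26.0% (Scd2) over the control libraries. The order of the control libraries, looked at after the values were seen, split the 8 called genes into 2 sets of 4. Srebf1, Scd1, Scd2 and Lpcat3 were all highest in control replicate 1 and lowest in control replicate 2. Abca1, Abcg1, Mylip and Smpdl3a were all lowest in control replicate 1, as was the receptor gene Nr1h2. Over all tested genes, 24.5% showed the first pattern and 37.3% had their lowest control value in replicate 1. The first pattern was seen in 62.5% of the 8 tested genes of the IDOL substrate and uptake list, 57.1% of 21 genes of fatty acid synthesis, 50% of 16 genes of phospholipid remodelling and 44.4% of 9 genes of LXR ligand metabolism. In the other 5 further lists its share was 0% to 20%. A lowest control value in replicate 1 was seen in 68.8% of LXR partners and coregulators and 66.7% of other ABCA and ABCG genes. The share was 53.8% for other LXR targets and 53.8% for cholesterol egress and storage. For the remaining lists it was 11.1% to 50%. Without control replicate 1 the log2 fold change was -2.16 for Abca1, -1.01 for Mylip, -4.03 for Scd1 and -1.03 for Scd2, and none of the 8 calls was lost when any 1 library was left out.

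**Figure D4:**
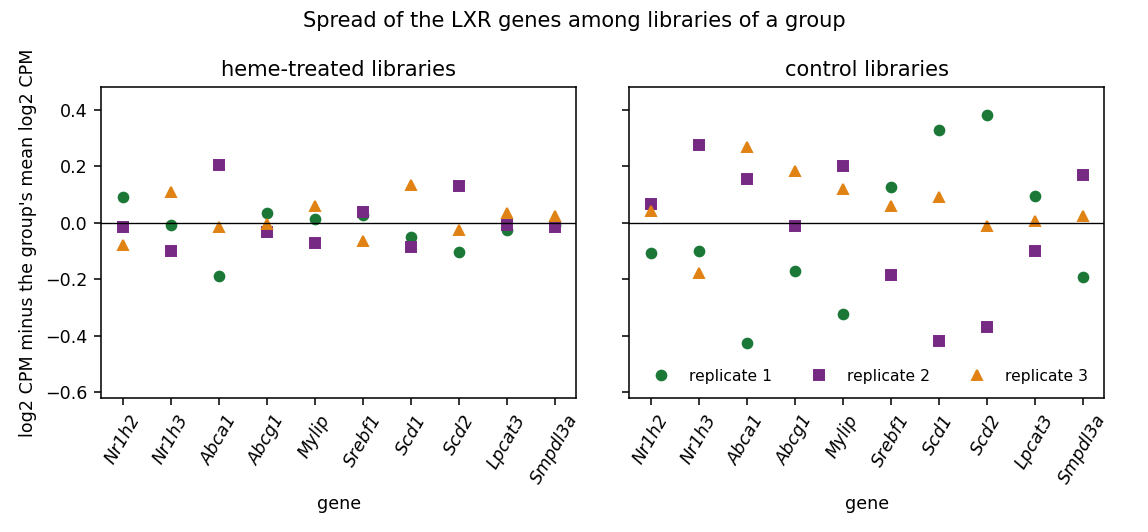
Log2 CPM of each of the 10 genes minus the mean of its group, for the 3 heme-treated libraries (left panel) and the 3 control libraries (right panel); symbols mark replicates. Control replicate 1 is the highest library for Srebf1, Scd1, Scd2 and Lpcat3 and the lowest for Abca1, Abcg1, Mylip and Smpdl3a, and the heme libraries lie closer together.

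Genes around the receptors were read from the same fit, with counts and medians in place of set tests. The shares to set beside each list, here and below, are those over all tested genes, 30.8% lower and 31.7% higher. Of 17 listed partners and coregulators of LXRs, 16 were tested, 9 fell and 1 rose (median log2 fold change -0.31). Ncoa3, a coactivator gene of nuclear receptors, fell most, with 77.8 ± 1.04 CPM in heme-treated and 229 ± 12.2 CPM in control BMDMs (SD, n = 3; log2 fold change -1.56, SE 0.06, adjusted p = 6.69e-08 in edgeR's test). The coactivator gene Ncoa1 (-0.63), Gps2 of the NCoR corepressor complex (-0.44) and the acetyltransferase gene Ep300 (-0.42) fell as well. Carm1, an arginine methyltransferase gene, was the 1 that rose (0.30), a call lost with library totals as the only scaling. Of the retinoid X receptor genes, named after their values were seen, Rxrb fell (-0.41, SE 0.10, adjusted p = 0.00469 in edgeR's test) and Rxra was not called (-0.10, SE 0.08). Without control replicate 3, and also with no filter on low counts, 2 genes of the list rose in place of 1.

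Of 12 listed genes that make or remove LXR ligands, 9 were tested, 5 fell and 3 rose (median -0.45), and 1 rose among those with an average logCPM of at least 1. Cyp27a1, the sterol 27-hydroxylase gene, averaged 12.3 ± 1.21 CPM in heme-treated and 35.0 ± 14.4 CPM in control BMDMs (SD, n = 3). It fell with a log2 fold change of -1.51 (SE 0.26, adjusted p = 0.000741 in edgeR's test), with the control libraries far apart. Cyp39a1, a hydroxylase gene for 24-hydroxycholesterol, fell too (-1.33). Ch25h, the cholesterol 25-hydroxylase gene, rose at a low level, with 0.472 ± 0.0677 CPM in heme-treated and 0.185 ± 0.0568 CPM in control BMDMs (SD, n = 3), a call not made by DESeq2 (adjusted p = 0.0617). Sult2b1, the gene of a sterol sulfotransferase that inactivates oxysterols, rose at a low level as well (1.16).

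Further known LXR targets mostly fell: of 20 listed genes 13 were tested, 10 fell and 2 rose (median -0.999); without the 20 most abundant genes, which take in Lpl, 1 rose. Apoe had 427 ± 40.7 CPM in heme-treated and 4445 ± 1043 CPM in control BMDMs (SD, n = 3; log2 fold change -3.38, SE 0.17, adjusted p = 2.2e-07 in edgeR's test). Apoc2 (-3.53) and the phospholipid transfer protein gene Pltp (-2.75) fell alongside it. Apoc1 had 1 count in the 3 heme libraries and 66 counts in the 3 control libraries, a ratio per library count of 0.0162 (95% exact binomial interval 0.000403 to 0.0932, counting error only). The 2 that rose were Lpl, the lipoprotein lipase gene (0.69), and the arginase gene Arg2 (1.01). Lpl was at 6629 ± 382 CPM in heme-treated and 4123 ± 557 CPM in control BMDMs (SD, n = 3). Arg2 was low, at 1.78 CPM in heme-treated and 0.880 CPM in control BMDMs.

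Genes of fatty acid synthesis went both ways, as did all tested genes (30.8% lower, 31.7% higher). Of 21 tested, 10 were lower and 8 higher (24 listed, median -0.29). Fads2, a desaturase gene for polyunsaturated fatty acids, fell (-1.64, SE 0.23), as did Scd4 at under 1 CPM (-1.51). Fasn, the fatty acid synthase gene whose window held the LXR letters, fell with a log2 fold change of -1.04 (SE 0.17), at 96.9 ± 13.2 CPM in heme-treated BMDMs. Elovl7, a fatty acid elongase gene (2.72), and Me1, the malic enzyme gene that supplies NADPH (2.29), rose most. Me1 is also known as a target of NRF2. With library totals as the only scaling, 5 genes of this list rose in place of 8.

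Of 13 genes listed under cholesterol egress and storage, 5 rose and 5 fell (median 0.10), beside 31.7% and 30.8% of all tested genes. With library totals as the only scaling, 2 rose. Abcd4, among the 5 that rose, is known for lysosomal cobalamin transport and was called near the threshold (0.27, adjusted p = 0.049 in edgeR's test). Plin2, the lipid droplet coat gene, rose (1.34, SE 0.10), at 1084 ± 110.4 CPM in heme-treated and 427 ± 39.8 CPM in control BMDMs (SD, n = 3). Soat2, a cholesterol esterification gene, rose at a low level (3.84), and the lysosomal cholesterol carrier gene Npc2 fell (-0.78). Of 14 other ABCA and ABCG genes, 9 were tested, 4 rose and 2 fell (median -0.03); with library totals as the only scaling, 4 fell. Abca8b rose most (log2 fold change 5.01, SE 0.13), with 46.0 ± 1.15 CPM in heme-treated and 1.44 ± 0.326 CPM in control BMDMs (SD, n = 3). Abca13 also rose (2.21), at 1.41 CPM in heme-treated and 0.300 CPM in control BMDMs. Abcg3 (-4.00) and Abca9 (-2.55) fell, Abcg3 from 5.73 CPM in control to 0.366 CPM in heme-treated BMDMs.

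Enzymes related to Lpcat3 and Smpdl3a were called in both directions, as were all tested genes (31.7% higher, 30.8% lower). Of 16 genes of phospholipid remodelling, all tested, 8 rose and 4 fell (median 0.19). Mboat2, a lysophospholipid acyltransferase gene of the same family as Lpcat3, rose most, with 57.9, 53.9 and 62.3 CPM in the heme libraries, against 1.46, 0.716 and 0.856 CPM in the control libraries. Its log2 fold change was 5.82 (SE 0.18, adjusted p = 1.19e-08 in edgeR's test), while Lpcat3 fell. The phospholipase genes Pla2g7 (2.28) and Pla2g4a (1.68) rose, and the lysosomal phospholipase gene Pla2g15 (-1.62) and the lysoplasmalogenase gene Tmem86a (-1.40) fell. Of 10 tested genes of sphingomyelin breakdown and synthesis (11 listed), 5 rose and 3 fell (median 0.13); with library totals as the only scaling, 3 rose. Sgms2, a sphingomyelin synthase gene (2.59), and at a low level Smpd5 (1.34) rose. The acid ceramidase gene Asah1 (-0.71) fell. Smpd3, a neutral sphingomyelinase gene, fell at a very low level (-2.70, SE 0.57). It had 0.131 ± 0.0466 CPM in heme-treated and 0.880 ± 0.531 CPM in control BMDMs (SD, n = 3).

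**Figure D5:**
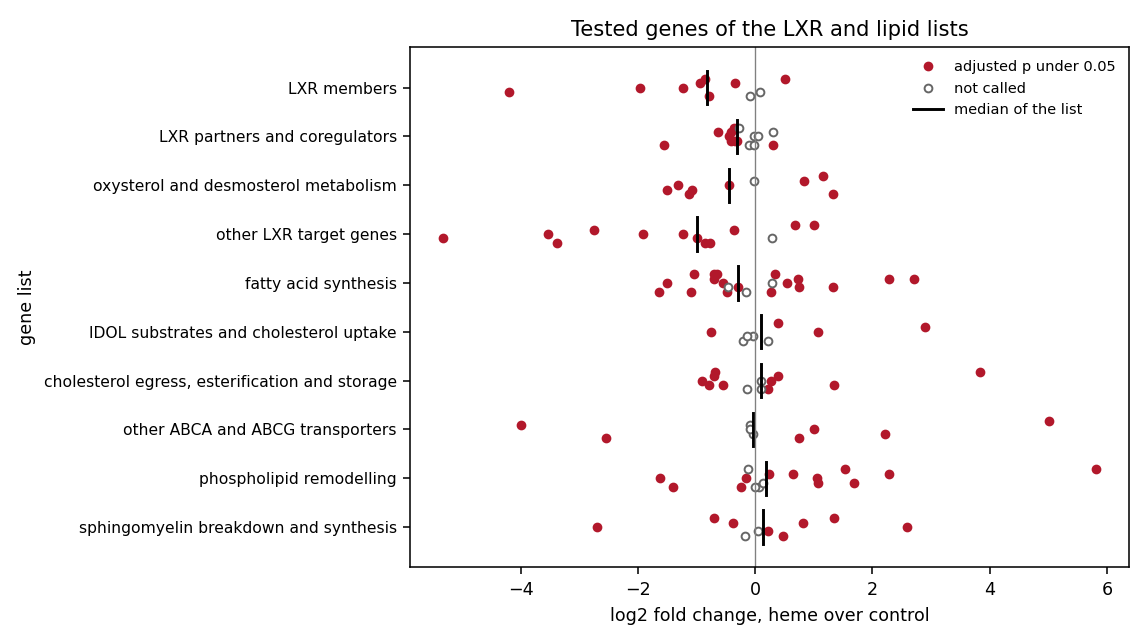
Log2 fold change (heme over control) of every tested gene of the 10 LXR genes and of 9 further lists, 1 point per gene, filled where the adjusted p in edgeR's test is under 0.05; vertical ticks mark list medians. The medians are -0.82 for the 10 LXR genes, -0.999 for other LXR targets and 0.19 for phospholipid remodelling; the leftmost point of the other LXR targets is Apoc1, whose fitted value rests on 1 count in the heme libraries.

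The heme response and the cell type were checked in the same libraries. Hmox1, the heme oxygenase gene, averaged 20999 ± 695 CPM in heme-treated and 584 ± 57.7 CPM in control BMDMs (SD, n = 3). Summed macrophage markers were at 36628 to 39903 CPM in heme and 32281 to 38122 CPM in control libraries, a sum made up mostly of Lyz2, and of the 10 markers 7 fell, 1 rose and 2 were not called. Neutrophil and precursor markers rose in 8 of 9 tested genes. Their sums were 1376 to 1523 CPM in heme and 86.5 to 153 CPM in control libraries. They were mostly Mmp8 in heme and Csf3r in control libraries. Mpo averaged 22.3 CPM in heme and 0.0102 CPM in control libraries, and S100a8 34.3 and 2.02 CPM. Csf3r was the 1 gene that fell. Ly6g, a neutrophil gene that was not tested, averaged 0.109 CPM in heme and 0.00995 CPM in control libraries. Monocyte markers rose in 5 of 7 and fell in 1 (sums of 221 to 290 CPM in heme and 91.3 to 171 CPM in control libraries). Among them Ly6c2 averaged 39.1 CPM in heme and 0.334 CPM in control libraries. Ccr2 was the monocyte marker that fell, at 12.6 CPM in heme and 23.6 CPM in control libraries. F13a1, the most abundant of them, was not called, at 120 CPM in heme and 96.4 CPM in control libraries. B cell markers summed to 41.9 to 57.2 CPM in heme and 228 to 263 CPM in control libraries, nearly all Ighm. Osteoclast markers rose in 4 of 5 tested genes (129 to 133 CPM in heme and 84.9 to 105 CPM in control libraries). Dendritic cell, T and NK cell, erythroid, mast cell, and stromal and adipocyte markers each summed to under 8 CPM in every library. The stromal and adipocyte sum was 1.03 to 1.46 CPM in heme and 0.249 to 0.597 CPM in control libraries. The part of a changed cell makeup in the results on the LXR genes was not tested, and in bulk RNA fewer cells of a type and less RNA per cell cannot be told apart.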

How the data were processed

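Bulk RNA-Seq counts of 3 heme-treated and 3 control BMDM libraries were analysed; groups and replicate numbers came from the sample labels. Per library, the authors deposited raw read counts for each Ensembl gene. Their processing notes list STAR 2.7.0, featureCounts and the assembly GRCm38.p5. Which annotation release, strand setting and rule for multi-mapped reads they used is not given in the sources used here, which bears on Srebf1, Lpcat3, Scd1 and Scd2. GENCODE M21 (GRCm38.p6) supplied symbols, exon lengths and positions (25587 of 25700 identifiers matched), and promoter windows from RefSeq on the same assembly.

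In R 4.3.3, edgeR 4.0.16 filtered genes (filterByExpr by condition, minimum count 10), scaled libraries by TMM and compared heme with control by its quasi-likelihood functions (glmQLFit, glmQLFTest), condition being the only term, with Benjamini-Hochberg adjustment over 12433 genes and calls at an adjusted p under 0.05. TMM factors were 0.918 to 0.931 in heme and 1.07 to 1.1 in control libraries. CPM values use the TMM-scaled totals. Where a library has no count of a gene, 0.119 CPM is the highest level that fits (the worth of 3 counts in the library of lowest total; counting error only). Ratios within a library were compared by exact two-sided permutation over libraries. Alternatives were other scalings, library sizes without the 20 most abundant genes, DESeq2 1.42.0, limma-voom (limma 3.58.1), other filters, a replicate block and leaving out each library. The fit was tested on simulated counts.

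The members and the lists were chosen with earlier results of these data known. Named in the text are the 10 genes, Hmox1 and, from each list, up to 4 called genes that changed most. Up to 2 called genes of the opposite direction are named as well. Additions to this rule, made once their values were known, are Vldlr, Rxra, Rxrb, Abcd4, Fasn and the other genes with the promoter letters. The overlapping genes and the markers Mpo, S100a8, Ly6c2, Ccr2 and F13a1 are further such additions. 1 listed erythroid marker found no match, and some genes that meet the rule are not reported here.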

Additional observations from a re-analysis of the deposited data

How the results depend on the processing

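Of 150 log2 fold changes of the 10 LXR genes under the 15 alternatives, 147 kept their direction and their side of the threshold. The exceptions were on the receptors. With library sizes as the only scaling, Nr1h3 turned to -0.15 and Nr1h2 fell by 0.31; without control replicate 3, Nr1h3 was at -0.0117, and its values without 1 library ranged from -0.01 to 0.22. The same scaling called 2580 genes higher and 5814 lower over all tested genes, against 3938 and 3831, and also ended the call of Carm1 (0.07); DESeq2 did not call Ch25h. For the other genes named in the text by the rule no alternative that could be fitted changed a call. The 7 falls and 1 rise held under every alternative, with 8 falls under library sizes alone. Counts of calls in the further lists moved by over 1.5 times in 11 cases, 6 of them under library sizes alone, where 2 in place of 5 genes of egress and storage rose and 4 in place of 2 other transporter genes fell. The replicate block gave -1.95 for Abca1 and changed no call of the 10 genes; residuals of same-numbered libraries did not go together (correlations of -0.0998, -0.142 and -0.0683), and the values reported are unpaired; whether both groups came from the same mice is not stated in the sources used here. The 3 ratios kept their sign under all 8 alternatives each; the block allows no exact p below 0.25. Having 3 libraries per group limits every p from permutation to 0.1 or more.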
